A study of Homo sapiens with 15 samples.

Results

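The genes described here are the human microRNA (miRNA) genes whose number is 1000 or higher and whose reads added up to at least 100 over the 15 small RNA libraries of the series. There were 132 of them among the 50037 genes of the count table. The table lists 1275 late-numbered miRNA genes in all, of which 489 had any count. Genes were chosen by the sum over all libraries, so their presence and total level describe the choice and were not tested, while treatments and experiments played no part in it. Just inside the limit lay MIR6731 and MIR3145 with 100 counts each, MIR6761 with 104, MIR4802 with 106 and MIR5187 with 107. Just outside it lay MIR6780A with 99, MIR11401 and MIR4522 with 98 each, MIR4690 with 96 and MIR6820 with 95.

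Small RNA was sequenced from human cells labelled HEK-293, an embryonic kidney line, with the genotype given as WT, after 18 h of incubation. The 5 libraries of the GKT136901 group came from cells given the lipids that lipoprotein lipase (LPL) releases from VLDL, together with GKT136901 at 20 µM, which inhibits the NADPH oxidase enzymes NOX1 and NOX4. The 5 LPL:VLDL libraries came from cells given the hydrolysis products alone, and the 5 VLDL libraries, titled pcDNA:VLDL with no account of the pcDNA, from cells given very low-density lipoprotein (VLDL) itself. Each group has 1 library from each of 5 experiments, numbered 2 to 6 in the labels, and all groups share the cells and the lipoprotein. The labels do not say whether the experiments used separate passages of the line, so p-values reflect only how these libraries vary, some of which may be technical.

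A miRNA is cut from a hairpin transcript by DROSHA and then DICER1, and 1 of its arms is loaded onto an Argonaute protein, where the seed near its 5′ end pairs with target mRNAs. Numbers are given in the order of discovery, so late numbers mostly belong to miRNAs found by deep sequencing, many of them low in level and in few species. Some, called mirtrons, are short introns or intron ends whose hairpin is freed by splicing in place of DROSHA.

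Libraries held 5.08 M to 9.76 M counts each, with the fewest in replicate 2 of the GKT136901 group. The series title speaks of macrophages. The 12 HEK-293 marker genes held 34 counts in all, with 4 of the 12 at 0, and summed to 0 to 1.26 CPM (counts per 1000000 counts of the library) with GKT136901, 0 to 0.110 CPM with LPL:VLDL, and to 0 to 1.04 CPM in VLDL cells. The 18 macrophage and other myeloid genes held 6343 counts, led by CSF1R (1771), ITGB2 (1382), SPP1 (1316) and LAPTM5 (935). AIF1 was at 0, and CD163, FCGR1A and MRC1 held 3, 3 and 4 counts. LYZ, CD14 and CD68 were low too, at 30, 31 and 56 counts. The 18 genes summed to 27.8 to 78.6 CPM with GKT136901, 25.7 to 122 CPM with LPL:VLDL, and to 36.8 to 104 CPM in VLDL cells. These are mRNA fragments in a small RNA library, and the markers go against the HEK-293 label. Of 25 genes of miRNA processing and loading, such as DROSHA, DICER1 and AGO2, 13 were tested and 0 were called in each of the 3 treatment comparisons by edgeR's quasi-likelihood test, with or without the experiment as a block. Without the block, DICER1 (unadjusted p = 0.0441, edgeR) and AGO3 (unadjusted p = 0.0455, edgeR) were the ones under 0.05 before adjustment, both in GKT136901 with LPL:VLDL against VLDL.

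The mature sequences below, from RefSeq (GRCh38.p14), are those of the most abundant late-numbered genes, the ones that most of the levels rest on, with the seed (bases 2 to 8) in capitals and each read 5′ to 3′. MIR6842 and MIR4661, which also rank among the 10 highest, are described by level only.
miR-1301-3p: uUGCAGCUgccugggagugacuuc
miR-1301-5p: cGCUCUAGgcaccgcagca
miR-3909: uGUCCUCUagggccugcagucu
miR-6503-3p: gGGACUAGgaugcagaccucc
miR-6503-5p: aGGUCUGCauucaaauccccaga
miR-3605-3p: cCUCCGUGuuaccuguccucuag
miR-3605-5p: uGAGGAUGgauagcaaggaagcc
miR-4521: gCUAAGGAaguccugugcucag
miR-1249-3p: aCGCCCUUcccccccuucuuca
miR-1249-5p: aGGAGGGAggagaugggccaaguu
miR-1304-5p: uUUGAGGCuacagugagaugug
miR-3928-3p: gGAGGAACcuuggagcuucggc

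No pair of these arms shares a seed. Mature sequences were in the table for 121 of the 132 genes, with 2 arms for 79 genes and 1 arm for 42. A count belongs to a hairpin gene and not to an arm, so the sequences show what a gene can give rise to and not which arm was read.

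Among all 121 genes only 3 seeds were shared by arms of different late-numbered genes. The pairs are set out here because members of a pair would be read together as a family.
miR-3909: uGUCCUCUagggccugcagucu
miR-6852-3p: uGUCCUCUguuccucag
miR-1180-5p: gGACCCACccggccgggaaua
miR-7114-3p: uGACCCACcccucuccaccag
miR-4685-5p: cCCAGGGCuuggaguggggcaagguu
miR-6837-5p: aCCAGGGCcagcagggaaugu

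Within each pair the levels were far apart or low. MIR3909 held 13688 counts over the 15 libraries and MIR6852 held 1027. MIR1180 held 2426 counts against 192 for MIR7114, and MIR4685 and MIR6837 held 145 and 244. Arms that share a seed with early-numbered miRNAs with counts in the table include miR-4420 (gUCACUGAugucuguagcugag) with MIR181B1 and MIR181B2, miR-4676-3p (cACUGUUUcaccacuggcucuu) with MIR452, miR-6866-3p (gAUCCCUUuaucuguccucuag) with MIR188, and miR-4725-5p (aGACCCUGcagccuucccacc) with MIR504. The matching arm of the early-numbered gene was not singled out, and it need not be the more abundant arm. A shared seed is a match of letters, and targets were not measured.

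Together the 132 genes held 238727 counts, which was 0.180% of all counts and 0.462% of the counts on miRNA genes. For comparison, 163 of the 864 other miRNA genes reached 100 counts, with a median total of 4675, against a median of 388.5 for the late-numbered genes. The level was concentrated in few genes: the 3 highest held 48.7% of the counts, the 5 highest 57.3% and the 10 highest 68.0%. Beyond these, 32 genes in all had 1000 counts or more, and 96 genes were seen in every one of the 15 libraries.

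Positions are those of RefSeq on GRCh38.p14, the assembly that the count table's annotation also uses. MIR1301 (chr2:25328640-25328721, minus strand) had 50647 counts and lies in an intron of DNMT3A, a de novo DNA methyltransferase gene. MIR6842, with 50541 counts, ends at a splice site in PTK2B, a tyrosine kinase gene on chromosome 8. MIR4661, on the same chromosome in an intron of LRRC69, had 15098. These and MIR3909 (chr22:35335640-35335758, plus strand), in an intron of the endosomal sorting gene TOM1, made up the 4 highest. MIR6503 (chr11:60209071-60209156, minus strand), in an intron of MS4A4E, had 6855 counts. MIR3605 (chr1:33332393-33332492, minus strand) had 6011 counts and overlaps an exon of PHC2, a Polycomb gene, by 12 bases. MIR4521 (chr17:8186945-8187004, plus strand) had 5755 counts and overlaps the serine tRNA gene TRS-GCT4-3 by 3 bases. MIR1249 (chr22:45200954-45201019, minus strand) in an intron of KIAA0930, MIR1304 (chr11:93733674-93733764, minus strand) in an intron of TAF1D, and MIR3928 (chr22:31160062-31160119, minus strand) between genes had 5177, 4759 and 3797 counts.

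Most of the late-numbered genes with reads sit inside another gene on its own strand. Of the 132, 64 lay within a same-strand intron and held 56.2% of the counts, 38 had 1 end of the hairpin within 5 bases of a splice site of their host and held 28.3%, and 4 filled a whole short intron. The last 2 classes have the layout of mirtrons. A further 16 lay between genes, 9 overlapped an exon of another gene, and 1 lay in an intron of a gene on the opposite strand. Exon overlap was assigned first. MIR1292, MIR3940, MIR5187 and MIR6789 are therefore among the 9, though each also had an end within 5 bases of a splice site.

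How often a late-numbered gene had any count differed by its position. The share was 75.7% of the 189 genes with an end at a splice site, 61.5% of the 26 that fill a short intron, 48.5% of the 427 in a same-strand intron, 28.2% of the 234 between genes and 26.5% of the 117 on the opposite strand of an intron. It was 9.22% of the 282 that overlap an exon of another gene and 3.10% of the 129 whose mature sequence is also that of another gene, and none of the 129 reached 100 counts. Per the file headers, the counting left out any read with several mapping places and any read that touched exons of more than 1 gene. The shares are therefore given with no test, since the position of a hairpin also sets which of its reads could be counted.

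**Figure D1:**
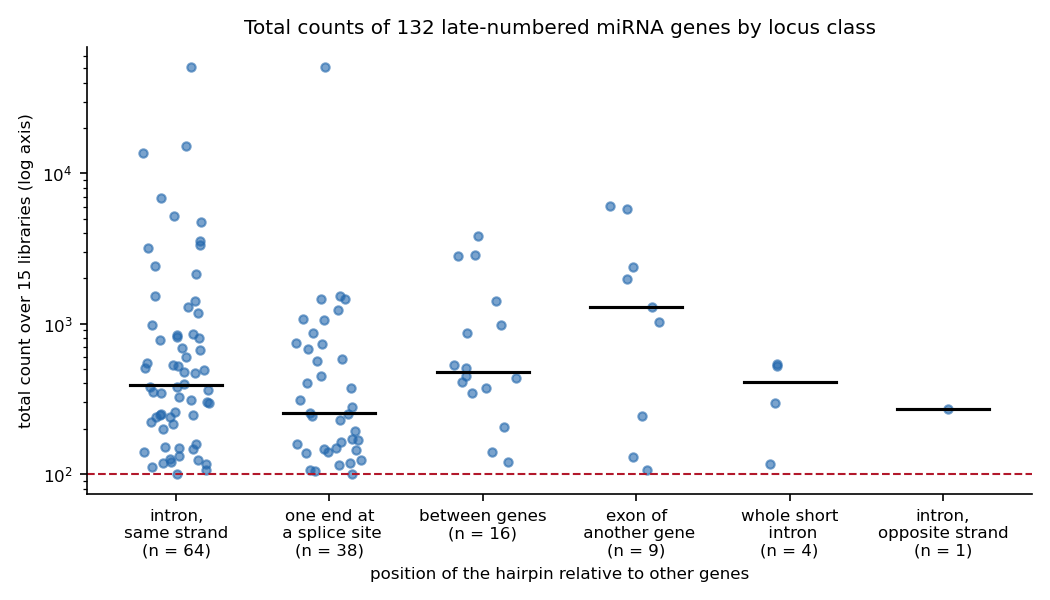
Total counts over 15 libraries (vertical, log axis) of the 132 late-numbered miRNA genes, 1 point per gene, by the position of the hairpin; horizontal offsets are arbitrary, black bars are class medians and the dashed line is the limit of 100 counts. MIR1301 in the same-strand class and MIR6842 in the splice-site class stand above all others at 50647 and 50541 counts.

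In the 9 genes that overlap an exon, the overlap was short. It was 22 bases of KHSRP for MIR3940, 19 of the proton pump subunit gene ATP6V0A1 for MIR5010, 12 of PHC2 for MIR3605, 8 of PHLDB1 for MIR6716 and 8 of TLN1 for MIR6852. It was 4 bases of PLEKHJ1 for MIR6789, 4 of TOMM40L for MIR5187, 3 of TRS-GCT4-3 for MIR4521 and 1 of NOP56 for MIR1292. Of the 282 late-numbered genes of this kind, 26 had any count, and these 9 are the ones that reached 100.

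A fragment of a host's intron would be counted on the hairpin as well, and the table does not tell it from a miRNA read. Of the 114 genes with a same-strand host, 18 had a host with more counts than the miRNA gene itself. The largest host was DDX5, the RNA helicase of the DROSHA complex, with 4536 counts against 1453 for MIR3064 at its splice site. At the other end, LRRC69 had 0 counts against 15098 for MIR4661, MS4A4E had 2 against 6855 for MIR6503, and HTR2C, a serotonin receptor gene, had 1 against 805 for MIR1298. DICER1 itself hosts a late-numbered gene, MIR3173, which had 1537 counts where the exons of DICER1 had 139. Only MIR6802 and MIR6803, both in PPP6R1 and with 148 and 118 counts, lie within 10 kb of each other.

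The hairpin of MIR1246 (chr2:176600980-176601052, minus strand) shares a run of 19 bases with the U2 spliceosomal RNA gene RNU2-1. It held 872 counts, in all 15 libraries.
miR-1246: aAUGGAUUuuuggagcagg
The mature miR-1246 is itself 19 bases long. A read that lies wholly within the shared run has several mapping places, so the counting left it out. The source of the reads that were counted on MIR1246 was not tested.

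The first question of the design is what LPL hydrolysis products changed relative to VLDL. No late-numbered miRNA gene was called in this comparison. Of the 132 genes, 123 passed the filter on low counts and were tested among 4099 genes in all; the other 9 had totals of 100 to 129. By edgeR's quasi-likelihood test with Benjamini-Hochberg adjustment over all genes, 0 of 123 had an adjusted p under 0.05, where 0% of all genes did. At an unadjusted p under 0.05 there were 3 of 123, or 2.44%, against 1.88% of all genes. With the experiment as a block there were 10, or 8.13%, against 4.2% of all genes, and again 0 were called, where 0.0244% of all genes were. For the 163 other miRNA genes the shares at an unadjusted p under 0.05 were 2.45% without the block and 11.7% with it. DESeq2 called 0 late-numbered genes and had 4 at an unadjusted p under 0.05.

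The differences of the late-numbered genes leaned upward without passing the test. A log2 difference above 0 was found for 82 of 123, or 66.7%, against 50.7% of all genes, and the median log2 difference was 0.15 against 0.01 over all genes. The 163 other miRNA genes had a median of 0.12, with 75.5% above 0. The lean was therefore seen in both groups of miRNA genes, and miRNA genes took 38.8% ± 7.04 of counts with LPL:VLDL and 37.8% ± 5.22 with VLDL (SD, n = 5 each). The TMM factors, the scaling of each library, averaged 0.963 ± 0.225 with LPL:VLDL and 1.05 ± 0.150 with VLDL (SD, n = 5 each). A smaller factor raises the CPM of every gene in a library. The part of this scaling in the lean was not tested. In 9 of 123 the LPL:VLDL library was the higher one in all 5 experiments, or 7.32%, against 3.44% of all genes, and in 1 of 123, MIR3064, it was the lower one in all 5, against 3.46%.

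**Figure D2:**
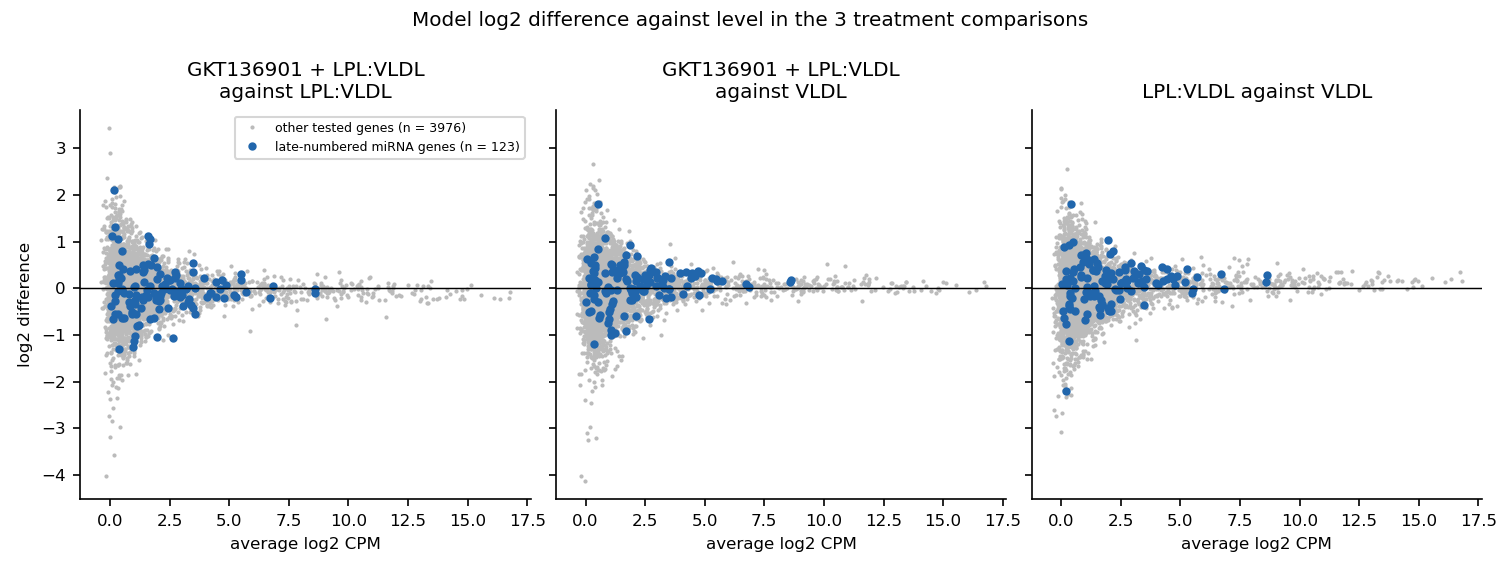
Log2 difference from the model (vertical) against average log2 CPM (horizontal) for the 123 tested late-numbered miRNA genes (blue) and the 3976 other tested genes (grey), in the 3 comparisons. The blue points lie within the spread of the grey points of like level, and the lowest and highest in LPL:VLDL against VLDL are -2.21 and 1.80.

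Among the most abundant genes the groups overlapped. Levels below are CPM of library totals scaled by TMM factors, given in the order of experiments 2 to 6. MIR1301 stood at 157, 438, 396, 560 and 593 CPM with LPL:VLDL, against 138, 287, 307, 486 and 551 CPM with VLDL. The LPL:VLDL library was the higher of the 2 in every experiment, while the experiments differed among themselves by far more. Its log2 difference was 0.28 ± 0.35 (SE; adjusted p = 0.999, edgeR), and with the block it was 0.30 ± 0.10 (SE; unadjusted p = 0.00819, adjusted p = 0.988). MIR3909 likewise stood at 78.5, 122, 121, 116 and 150 CPM with LPL:VLDL, against 77.4, 100, 101, 99.4 and 98.3 CPM with VLDL. It was higher with LPL:VLDL in 5 of 5 experiments, with the smallest gap in experiment 2. The log2 difference was 0.30 ± 0.21 (SE; adjusted p = 0.999, edgeR). MIR1249 averaged 44.1 ± 6.49 CPM in LPL:VLDL libraries and 33.4 ± 6.18 CPM in VLDL libraries (SD, n = 5 each), a log2 difference of 0.40 ± 0.24 (SE; adjusted p = 0.999, edgeR).

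The smallest p in this comparison without the block belonged to MIR1255A (chr4:101330302-101330414, minus strand), in an intron of PPP3CA, the gene of the calcineurin catalytic subunit. Its mature form, shown because this gene had the smallest p of the late-numbered genes without the block, has the sequence given here.
miR-1255a: aGGAUGAGcaaagaaaguagauu
It stood at 2.61, 4.43, 5.09, 9.31 and 6.84 CPM with LPL:VLDL, against 1.76, 2.65, 3.03, 3.15 and 3.25 CPM with VLDL. The LPL:VLDL library was the higher one in every experiment, but the ranges overlap, because its library of experiment 2 lies below 4 of the VLDL libraries. The log2 difference was 1.03 ± 0.40 (SE; unadjusted p = 0.0151, adjusted p = 0.999, edgeR). With the block the unadjusted p was 0.00869, against 0.00819 for MIR1301. Its host PPP3CA had 113 counts in all libraries together and a log2 difference of 1.00 (unadjusted p = 0.267, edgeR). The part of PPP3CA fragments in the level of MIR1255A was not tested.

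2 low genes had the next smallest p without the block. MIR4685, at a splice site of HPS1, had 3.39, 1.39, 1.04, 1.97 and 1.88 CPM with LPL:VLDL, against 0.264, 1.12, 0.522, 0.225 and 0.602 CPM with VLDL. Its log2 difference was 1.80 ± 0.76 (SE; unadjusted p = 0.0252, adjusted p = 0.999, edgeR), and it rests on 145 counts over all 15 libraries. MIR4511, in an intron of DENND4A, went the other way, with a log2 difference of -2.21 ± 1.05 (SE; unadjusted p = 0.0440, adjusted p = 0.999, edgeR), and was at 0 in all 3 libraries of experiment 2. MIR5010 averaged 20.7 CPM with LPL:VLDL, against 15.1 CPM with VLDL, and was the higher in 4 of 5 experiments, with an unadjusted p of 0.265 without the block and 0.0120 with it (edgeR).

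A single late-numbered gene, MIR10527, had no overlap between the LPL:VLDL and VLDL libraries, against 0.561% of all genes; it is named for this, after its values were seen. It lies between genes (chr12:63823663-63823727, plus strand) and stood at 23.4 to 26.4 CPM with LPL:VLDL, against 14.9 to 21.2 CPM with VLDL. The groups parted on the TMM-scaled CPM scale and not in raw counts. Its raw counts were 270, 169, 211, 241 and 179 with LPL:VLDL and 170, 178, 168, 180 and 176 with VLDL. The LPL:VLDL library with 169 counts had a TMM factor of 0.765. Its log2 difference was 0.40 ± 0.24 (SE; adjusted p = 0.999, edgeR).

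The second question is what GKT136901 changed in cells given the hydrolysis products. This comparison shares the LPL:VLDL libraries with the first, so a library that is high or low there pulls the 2 differences in opposite directions. Again 0 of 123 late-numbered genes had an adjusted p under 0.05 by edgeR's quasi-likelihood test, where 0% of all genes did. At an unadjusted p under 0.05 there were 4 of 123, or 3.25%, against 2.12% of all genes, and with the block 8, or 6.5%, against 3.68%. For the 163 other miRNA genes these shares were 1.23% without the block and 7.98% with it. DESeq2 called 0 late-numbered genes and had 6 at an unadjusted p under 0.05. The log2 difference was above 0 for 51 of 123, or 41.5%, against 47.9% of all genes, with a median of -0.06 against -0.02 over all genes. The other miRNA genes had 51.5% above 0 and a median of 0.007. With the block, 47.2% of the late-numbered genes were above 0, with a median of -0.08. The GKT136901 library was higher in all 5 experiments for 8 genes (6.5%, against 3.2% of all genes) and lower in all 5 for 6 (4.88%, against 3.32%), and in 0 genes did the groups not overlap, against 0.488%.

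MIR1298 (chrX:114715233-114715344, plus strand), in an intron of HTR2C, had the smallest p here, and its arms are shown for that reason.
miR-1298-5p: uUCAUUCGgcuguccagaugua
miR-1298-3p: cAUCUGGGcaacugacugaac
It stood at 0.931, 5.83, 4.01, 3.88 and 5.15 CPM with GKT136901 and at 4.78, 5.26, 6.02, 13.8 and 10.998 CPM with LPL:VLDL. The inhibitor library was the lower one in 4 of 5 experiments, and the widest gaps were in experiments 2, 5 and 6. Its log2 difference was -1.06 ± 0.40 (SE; unadjusted p = 0.0128, adjusted p = 0.9996, edgeR), and with the block the unadjusted p was 0.00259. Relative to VLDL, where it stood at 5.06 to 7.77 CPM, the log2 difference was -0.67 ± 0.40 (SE; adjusted p = 0.999, edgeR).

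MIR1255A stood at 2.38, 1.61, 3.79, 4.00 and 1.72 CPM with GKT136901, against the LPL:VLDL levels given above. The inhibitor library was the lower one in 5 of 5 experiments. Its log2 difference was -1.05 ± 0.40 (SE; unadjusted p = 0.0139, adjusted p = 0.9996, edgeR). The ranges overlap, since the LPL:VLDL library of experiment 2 was low. Relative to VLDL the log2 difference was -0.02 ± 0.40 (SE; adjusted p = 0.999, edgeR). The same LPL:VLDL libraries enter both differences in which MIR1255A is named. The host PPP3CA also had a negative log2 difference with the inhibitor, -2.001 (unadjusted p = 0.0437, edgeR), and was not called.

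2 genes had larger values with the inhibitor. MIR1293, in an intron of the actin-binding gene LIMA1, stood at 6.41, 4.02, 4.77, 3.08 and 1.60 CPM with GKT136901 and at 1.22, 2.63, 2.89, 1.31 and 1.07 CPM with LPL:VLDL. MIR6732, at a splice site of ZC3H12A, an RNase gene that limits cytokine mRNAs, stood at 4.76, 5.43, 5.63, 4.11 and 1.94 CPM with GKT136901 and at 1.74, 0.554, 4.28, 2.74 and 1.07 CPM with LPL:VLDL. Both were the higher in 5 of 5 experiments, and the ranges of the groups overlap in both. The log2 differences were 1.13 ± 0.48 (SE; unadjusted p = 0.0256, adjusted p = 0.9996, edgeR) for MIR1293 and 1.06 ± 0.50 (SE; unadjusted p = 0.0438, adjusted p = 0.9996, edgeR) for MIR6732. The host ZC3H12A had 756 counts, more than the 401 of MIR6732, and its own log2 difference was -0.09.

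**Figure D3:**
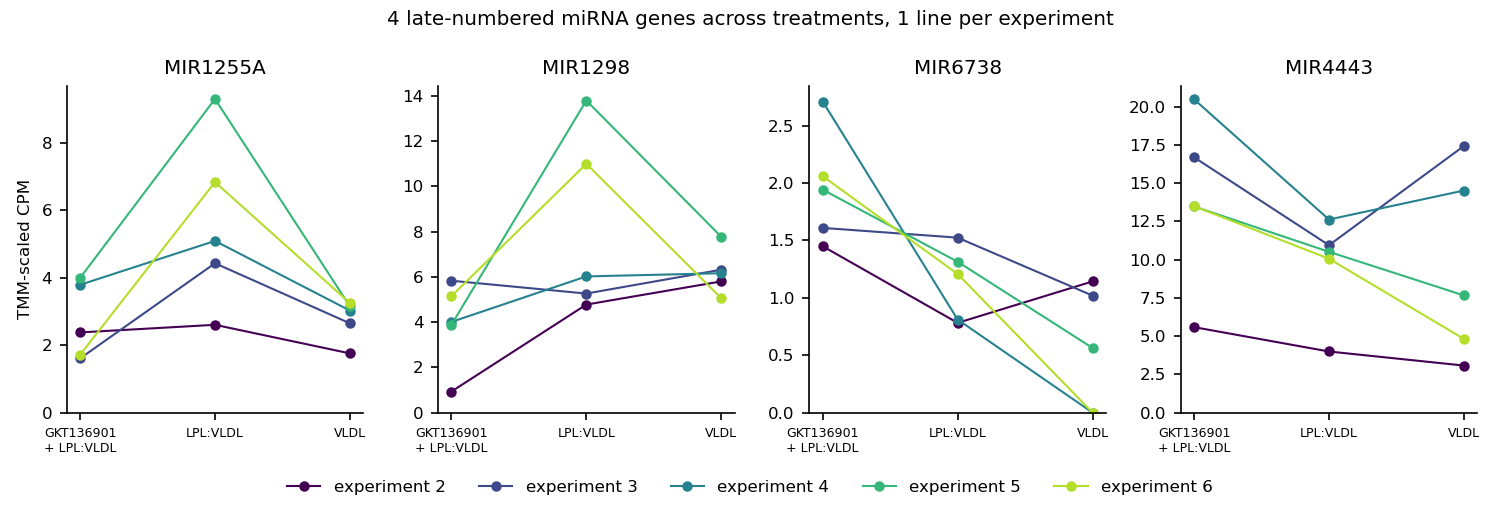
TMM-scaled CPM (vertical) of MIR1255A, MIR1298, MIR6738 and MIR4443 in the 3 groups, 1 line per experiment. The MIR1255A lines peak at LPL:VLDL in all 5 experiments, while MIR6738 runs from 1.45 to 2.71 CPM with GKT136901 and from 0 to 1.14 CPM with VLDL; none of these differences passed the adjusted test.

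The remaining pair is GKT136901 with LPL:VLDL against VLDL, which shares libraries with both comparisons above. Of 123 late-numbered genes, 0 were called by edgeR's quasi-likelihood test, where 0% of all genes were. At an unadjusted p under 0.05 there were 2, or 1.63%, against 2.22% of all genes, and with the block 7, or 5.69%, against 4.32%. For the 163 other miRNA genes these shares were 0% without the block and 12.3% with it. DESeq2 called 0 late-numbered genes and had 2 at an unadjusted p under 0.05. The log2 difference was above 0 for 77, or 62.6%, against 49.6% of all genes, with a median of 0.13 against 0.00 over all genes and 0.13 over the other miRNA genes. In 7 genes (5.69%, against 3.66% of all genes) the GKT136901 library was higher in all 5 experiments and in 1, MIR6837, lower in all 5 (0.813%, against 3.73%).

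MIR6738 (chr1:155951273-155951336, minus strand), at a splice site of ARHGEF2, was the single late-numbered gene whose GKT136901 and VLDL libraries did not overlap, against 0.512% of all genes. Its arms are shown for that reason.
miR-6738-5p: cGAGGGGUagaagagcacagggg
miR-6738-3p: cUUCUGCCugcauucuacucccag
It had 14, 8, 25, 17 and 18 counts with GKT136901 and 13, 10, 0, 5 and 0 counts with VLDL. On the CPM scale these were 1.45, 1.61, 2.71, 1.94 and 2.06 with GKT136901 and 1.14, 1.02, 0, 0.563 and 0 with VLDL. The groups parted on the CPM scale and not in raw counts. The log2 difference was 1.79 ± 0.74 (SE; unadjusted p = 0.0219, adjusted p = 0.999, edgeR). ARHGEF2 itself held 413 counts and had a log2 difference of -0.56.

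MIR4443, between genes (chr3:48196564-48196616, plus strand), had the smallest p with the block. It stood at 5.59, 16.7, 20.5, 13.5 and 13.5 CPM with GKT136901 and at 3.08, 17.4, 14.5, 7.66 and 4.82 CPM with VLDL, and was the higher in 4 of 5 experiments. With the block its log2 difference was 0.66 ± 0.23 (SE; unadjusted p = 0.00665, adjusted p = 0.997, edgeR), against 0.55 ± 0.41 (SE) without it. MIR4470 averaged 4.75 CPM with GKT136901 and 2.49 CPM with VLDL (unadjusted p = 0.0363, adjusted p = 0.999, edgeR), and MIR7114 averaged 2.10 CPM against 1.00 CPM, with an unadjusted p of 0.0102 with the block. MIR6837 had 0.724 to 1.61 CPM with GKT136901 and 1.20 to 3.83 CPM with VLDL (adjusted p = 0.999, edgeR).

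The libraries of the 3 groups overlapped in level for the other most abundant genes too. MIR6842 averaged 394 ± 117 CPM with GKT136901, 396 ± 158 CPM with LPL:VLDL, and 361 ± 135 CPM in VLDL libraries (SD, n = 5 each). MIR4661 averaged 117 ± 28.7, 114 ± 34.6 and 114 ± 28.1 CPM in the same order, MIR6503 53.2 ± 32.1, 56.3 ± 31.4 and 47.8 ± 25.7 CPM, and MIR4521 49.7 ± 19.8, 40.4 ± 13.1 and 43.3 ± 19.5 CPM. The steadiest of the 10 highest was MIR3605, with a coefficient of variation of 17.2% over the 15 libraries and means of 49.2 ± 11.8, 43.6 ± 5.21 and 43.9 ± 4.88 CPM. MIR1304 averaged 35.3 ± 5.42, 39.1 ± 12.7 and 35.6 ± 9.02 CPM, and MIR3928 31.3 ± 9.97, 30.0 ± 4.93 and 25.0 ± 5.20 CPM.

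**Figure D4:**
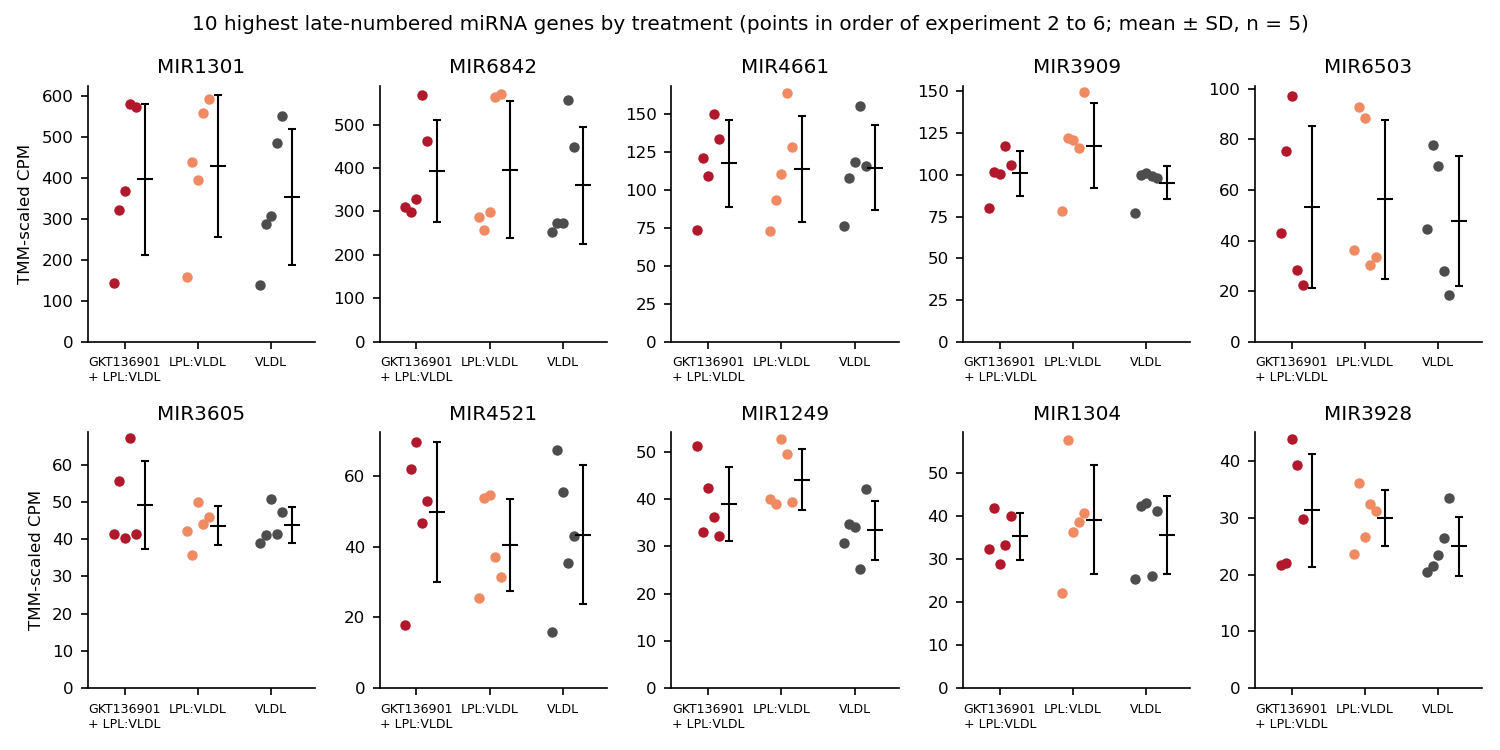
TMM-scaled CPM (vertical) of the 10 highest late-numbered miRNA genes in each library of the 3 groups, points set left to right by experiment 2 to 6, with the mean and SD of 5 libraries at the right of each group. In MIR1301 experiment 2 is the lowest point of each group, while the 3 group means of 398, 429 and 354 CPM lie within 1 SD of each other.

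As a whole, the late-numbered genes held 0.466% ± 0.0196 of miRNA counts with GKT136901, 0.459% ± 0.0240 with LPL:VLDL and 0.460% ± 0.0275 with VLDL (SD, n = 5 each). These shares differed between the groups by less than their SD.

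Some late-numbered genes differed between the 5 experiments. In the model with both, 22 of 123 late-numbered genes (17.9%) had an adjusted p under 0.05 between the 5 experiments by edgeR's quasi-likelihood test, against 11.1% of all genes and 90 of the 163 other miRNA genes (55.2%). They were 16 of the 32 tested genes with 1000 counts or more and 6 of the 91 below that.

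The experiment calls depend on the scale of the levels. In experiment 2 miRNA genes took 30.2% to 32.7% of the counts, and its TMM factors, the scaling of each library, were 1.16 to 1.34. On the TMM scale 68 of the 123 genes (55.3%) had their lowest mean in experiment 2 and 16 their highest, against 24.4% and 29.3% of all genes. For the 163 other miRNA genes the shares were 60.7% and 9.82%, so the pattern was not particular to the late-numbered genes. Scaled per 1000000 miRNA counts (miRNA-scaled CPM), an alternative chosen after the data were seen, 26 of 123 (21.1%) were lowest in experiment 2 and 53 (43.1%) were highest, against 6.46% and 67.9% of all genes. The other miRNA genes had 17.2% and 47.9% on this scale. On that scale 23 of the 123 late-numbered genes were called between experiments, against 21.5% of all genes and 73 of the 163 other miRNA genes. This was a smaller share than over all genes, where on the TMM scale it was a larger one. Called on both scales were 9 late-numbered genes: MIR6503, MIR4420, MIR1301, MIR6842, MIR1246, MIR4521, MIR7974, MIR4443 and MIR1180.

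MIR1301 had the smallest p between experiments. Its means were 146 ± 9.81, 349 ± 79.0, 357 ± 45.5, 543 ± 49.8 and 573 ± 21.2 CPM in experiments 2 to 6 (SD, n = 3 libraries each; adjusted p = 6.41e-11, edgeR). Experiment 2 was the lowest and experiments 5 and 6 the highest, in each of the 3 groups. In miRNA-scaled CPM the means were 596, 904, 896, 1148 and 1195, in the same order of low, middle and high. The exons of its host DNMT3A had 142 counts in all.

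MIR6503 had another pattern, with high levels in experiments 3 and 4. Its means were 41.3 ± 4.51, 82.0 ± 9.32, 85.1 ± 14.1, 28.9 ± 1.30 and 24.8 ± 7.87 CPM in experiments 2 to 6 (SD, n = 3 each; adjusted p = 1.11e-08, edgeR). In miRNA-scaled CPM they were 168, 213, 214, 61.4 and 50.8, so that experiments 5 and 6 were the lowest on both scales. MIR6842 was instead highest in experiments 5 and 6. Its means were 284 ± 28.8, 276 ± 21.0, 300 ± 28.2, 563 ± 6.37 and 494 ± 67.4 CPM in experiments 2 to 6 (SD, n = 3 each, adjusted p = 2.39e-07, edgeR). In miRNA-scaled CPM, however, its level in experiment 2 was 1152, between the 1194 and 1024 of experiments 5 and 6, with 720 and 757 in experiments 3 and 4. PTK2B, its host, stood at 2.38 to 4.61 CPM in the 5 experiments, lowest in experiment 4.

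MIR1180, in an intron of the ciliary gene B9D1, had means of 6.51 ± 2.65, 18.5 ± 2.36, 15.5 ± 0.909, 30.3 ± 1.17 and 23.8 ± 4.11 CPM (SD, n = 3 each; adjusted p = 2.47e-06, edgeR). MIR4521 had means of 19.7 ± 5.10, 60.8 ± 6.82, 59.7 ± 8.35, 39.7 ± 6.09 and 42.4 ± 10.7 CPM (SD, n = 3 each; adjusted p = 9.51e-06, edgeR). Both were lowest in experiment 2 on either scale, at 26.1 and 80.3 miRNA-scaled CPM. MIR4443 was lowest there too, at 4.22 CPM against 9.46 to 15.9 CPM in the others.

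**Figure D5:**
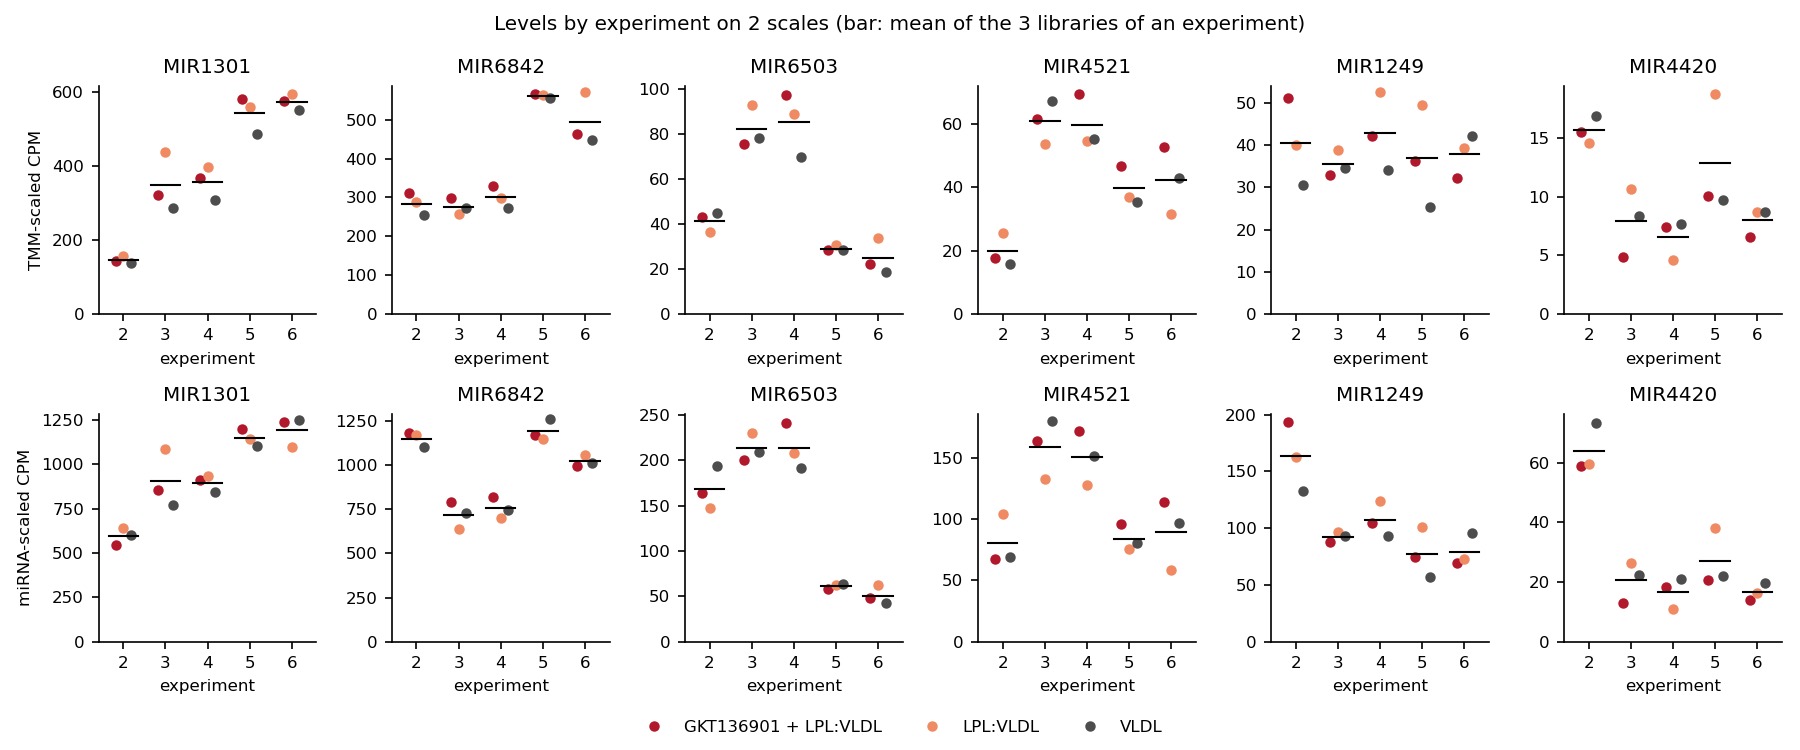
Levels of 6 late-numbered miRNA genes in each library by experiment (horizontal), on the TMM-scaled CPM scale (top) and in miRNA-scaled CPM (bottom), with bars at the mean of the 3 libraries of an experiment. MIR6503 is low in experiments 5 and 6 on both scales, while MIR6842 in experiment 2 is low on the CPM scale (284) and high in miRNA-scaled CPM (1152).

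Of the 22 genes called on the TMM scale, MIR1246, MIR4420 and MIR7974 were highest in experiment 2, and they were called and highest there in miRNA-scaled CPM too. In miRNA-scaled CPM, 16 of the 23 called genes were highest in experiment 2. MIR4420 (chr1:30739156-30739232, minus strand) had means of 15.7 ± 1.15, 7.95 ± 2.94, 6.54 ± 1.66, 12.8 ± 5.11 and 7.97 ± 1.26 CPM (SD, n = 3 each; adjusted p = 0.0134, edgeR). It lies in an intron of LAPTM5, a lysosomal membrane gene of blood cells that is also 1 of the 18 myeloid genes, and LAPTM5 stood at 11.3 CPM in experiment 2 and at 4.71 to 6.40 CPM in the others. The part of LAPTM5 fragments in the level of MIR4420 was not tested. MIR1246 had 9.61 ± 3.84 CPM in experiment 2 and 3.03 to 7.21 CPM in the others (adjusted p = 0.0115, edgeR), and MIR7974 had 6.90 ± 1.13 CPM against 1.40 to 3.86 CPM (adjusted p = 0.0477, edgeR).

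Another called gene lies at a splice site of IRF8, a transcription factor gene of myeloid cells. This gene, MIR6774, had means of 2.31, 3.45, 3.95, 9.53 and 6.59 CPM in experiments 2 to 6 (adjusted p = 0.00685, edgeR), and IRF8 had 0.501, 1.04, 0.503, 2.43 and 0.989 CPM, with experiment 5 the highest for both. MIR3064 and MIR3173, in the processing genes DDX5 and DICER1, were also called (adjusted p = 0.0477 and 0.0414, edgeR), both highest in experiment 6, at 16.7 CPM each, and lowest in experiment 2, at 8.01 and 6.36 CPM. DDX5 itself was at 21.2 CPM in experiment 2 and at 33.4 to 41.8 CPM in the others. In miRNA-scaled CPM neither MIR3064 nor MIR3173 was called or lowest in experiment 2. There MIR3064 stood at 32.2 in experiment 2 and at 23.4 to 35.1 in the others, and MIR3173 was lowest in experiment 5, at 24.6. MIR6774 was not called in miRNA-scaled CPM either (adjusted p = 0.180, edgeR). IRF8 held 140 counts in all libraries together, and the part of IRF8 fragments in the level of MIR6774 was not tested. The remaining called genes were MIR2116, MIR4661, MIR5010, MIR6716, MIR3177, MIR1278, MIR6741, MIR6718, MIR7114 and MIR5586, each lowest in experiment 2 on the CPM scale.

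Without experiment 2, 8 late-numbered genes were called between the other 4 experiments, and 145 of all genes, by edgeR's quasi-likelihood test. Both are counts without the number tested in that fit, and are not compared as shares. The 8 genes were MIR1180, MIR1301, MIR3177, MIR4521, MIR6503, MIR6716, MIR6774 and MIR6842, all of them among the 22.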

How the data were processed

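Per the file headers, the deposited counts are raw reads per gene, made with featureCounts 2.0.6 over exons of a RefSeq annotation (GRCh38.p14), with no settings for strand, multiple mapping or overlap between genes; the authors did not normalize them. The submitters' processing notes name fastp 0.24.0, STAR 2.7.11b, R 4.4.2, edgeR 4.4.2, DESeq2 1.46 and hg38, in roles not given in the sources used here.

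Here filterByExpr (minimum count 10, minimum total 15) kept 4099 genes with 99.7% of counts. After TMM scaling, edgeR 4.0.16 in R 4.3.3 tested each gene (quasi-likelihood F, two-sided, all 3 groups in 1 model, 12 residual degrees of freedom). P-values were adjusted by Benjamini-Hochberg across the 4099 genes and called under 0.05. The labels give replicates 1 to 5 as experiments 2 to 6, which pairs libraries by number. Deviations from the group mean had a median r of 0.115 within the 15 same-number pairs (0.0664 to 0.378) and of -0.07 in other pairs (highest 0.148), so the 2 sets overlap. The experiment was fitted as a block in the alternative model (8 residual degrees of freedom), which also gave the test between experiments. The biological coefficient of variation was 0.583, and 0.513 with the block. DESeq2 1.42.0 was another alternative. No 2 libraries of a group were repeats of each other (chi-square over degrees of freedom 8.59 to 167). Scripts were tested on simulated data.

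Hairpin positions were compared with RefSeq exons and GENCODE small RNA transcripts. Named genes were the 10 highest, the 3 smallest p per comparison with and without the block, the 5 smallest between experiments, those overlapping an exon or sharing a run of 18 or more bases with a small RNA, those sharing a seed or within 10 kb of each other, and the 5 on each side of 100 counts. Other genes named are those called between experiments, those in a count of 5 or fewer, or those set beside their host or seed, chosen after their values were seen. A gene that shares such a run, and a seed with an early-numbered miRNA, is not reported here. The members and lists were chosen with earlier results of these data known.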

Additional observations from a re-analysis of the deposited data

Results flagged for a closer look

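In groups of 5 libraries, 4 of 75 values examined lay far from the other 4 of their group (Dixon's critical value 0.71, which chance passes in about 1 in 20 groups). Replicate 2 of the GKT136901 group held 5.08 M counts, where the other 4 libraries of the group held 8.36 M to 9.62 M. MIR7114 stood at 5.23 CPM in replicate 5 of the LPL:VLDL group, where the others had 0.657 to 0.811 CPM. It also stood at 3.25 CPM in replicate 5 of the VLDL group, where the others had 0.176 to 0.815 CPM, and at 2.86 CPM in replicate 5 of the GKT136901 group, which did not stand apart. All 3 libraries are from experiment 6. MIR3909 stood at 77.4 CPM in replicate 1 of the VLDL group, from experiment 2, where the others had 98.3 to 101 CPM.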

How the results depend on the processing

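Every alternative run called 0 late-numbered genes in each treatment comparison: the replicate block, DESeq2, other scalings, no filter, a minimum count of 50, scaling by miRNA counts, and leaving out each library or experiment. Of the named genes, 14 log2 differences, those with the smallest p, were recomputed under the alternatives. The 393 values so obtained kept their direction, and none passed the adjusted test. The 14 were picked by p from these same libraries, which the alternatives mostly share, so a kept direction is no support for them. Over all genes, LPL:VLDL against VLDL had 1 called gene with the replicate block, 5 with DESeq2 and the block, and 0 to 2 with the block when an experiment was left out; GKT136901 with LPL:VLDL against VLDL had 2 with DESeq2 and the block. The block changed no other call. Between experiments, 145 genes and 8 late-numbered genes were called without experiment 2, and leaving out 1 library gave 325 to 506 genes and 16 to 24 late-numbered genes. The number tested in each of these fits is not given, so they are counts and not shares. Scaling by miRNA counts gave 880 genes and 23 late-numbered genes, 9 of them called on the TMM scale too; the cause was not tested. Of all counts, the late-numbered genes held 0.179% in the mean of the 15 libraries. The error was larger for genes with fewer counts: the median SE of the log2 difference between LPL:VLDL and VLDL was 0.32 for the 32 genes with 1000 counts or more and 0.55 for the 91 others, and with the block 0.19 and 0.51.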
